A study of Mus musculus with 6 samples.

Results

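The 10 genes described here belong to the BCL2 family, which sets the threshold for mitochondrial apoptosis. They were taken by symbol from the deposited gene table: the pro-survival genes Bcl2, Bcl2l1, Mcl1 and Bcl2l2, the effector gene Bak1, and the BH3-only genes Bcl2l11, Bid, Bad, Bmf and Bik. All 10 were found among 50763 gene symbols, and all 10 passed the filter on low counts that left 19313 genes for testing.

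RNA had been sequenced in bulk from CD34- KSL cells of mouse bone marrow, a lineage-negative, c-Kit-positive and Sca-1-positive population enriched for long-term haematopoietic stem cells. All mice carried Tal1-tTA, a transactivator that doxycycline switches off and that is driven by elements of the blood stem cell gene Tal1, together with the responder transgene TRE-EGFR-tr. The EGFR-DN mice (n = 3 libraries) drank water without doxycycline and so made, beside the wild-type epidermal growth factor receptor (EGFR), a form without its cytoplasmic tyrosine kinase domain. The EGFR-WT mice (n = 3 libraries) received 0.2 g/L doxycycline in the drinking water and made only the wild-type receptor. Doxycycline therefore differed between the groups in every library, and its effect and that of the truncated receptor cannot be told apart. The labels state neither the age of the mice nor whether each library came from its own animals, so the p-values reflect only how far these libraries vary, which may be partly technical.

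Mitochondrial apoptosis is decided by binding between these proteins. BAK1 and its relative BAX open pores in the outer mitochondrial membrane, the pro-survival proteins hold them and the BH3-only proteins in check, and BH3-only proteins, induced or activated by stress and by loss of growth factor signals, either occupy the pro-survival proteins or activate BAX and BAK1. In mouse blood stem cells MCL1 is required for survival, and signalling from growth factor receptors through ERK and AKT is known to restrain BIM, the protein of Bcl2l11, and BAD. Much of this control acts on the proteins, which were not measured here. The table also holds 1 value per gene, so splice forms with opposed activities, such as the long and short forms of Bcl2l1 and Mcl1, were not separated.

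To show where transcription of the members that the results turn on begins, 300 bases of promoter (250 before to 50 after an annotated start) are given 5′ to 3′ on the gene's own strand, from RefSeq on GRCm38.p6. Bcl2l11 is shown because it had the smallest p of the family, Bcl2 because its 3 EGFR-DN values lay close together above those of EGFR-WT, and Mcl1 because it was the most abundant member. In Bcl2l11 (chr2:128125788-128126087, plus strand, the first of its 2 entries) capitals mark a FOXO core (GTAAACA, the reverse complement of TGTTTAC) and an ETS core (CTTCCG, the reverse complement of CGGAAG). In Bcl2 (chr1:106714241-106714540, minus strand) they mark GC boxes (GGGCGG or CCGCCC), and in Mcl1 (chr3:95658471-95658770, plus strand) ETS cores and a GC box.
Bcl2l11: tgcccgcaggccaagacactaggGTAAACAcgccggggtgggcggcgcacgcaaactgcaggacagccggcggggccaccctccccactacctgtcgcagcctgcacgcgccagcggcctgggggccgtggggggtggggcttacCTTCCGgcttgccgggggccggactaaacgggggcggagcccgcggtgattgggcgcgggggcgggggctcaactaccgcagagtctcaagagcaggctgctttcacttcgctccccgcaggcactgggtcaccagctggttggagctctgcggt
Bcl2: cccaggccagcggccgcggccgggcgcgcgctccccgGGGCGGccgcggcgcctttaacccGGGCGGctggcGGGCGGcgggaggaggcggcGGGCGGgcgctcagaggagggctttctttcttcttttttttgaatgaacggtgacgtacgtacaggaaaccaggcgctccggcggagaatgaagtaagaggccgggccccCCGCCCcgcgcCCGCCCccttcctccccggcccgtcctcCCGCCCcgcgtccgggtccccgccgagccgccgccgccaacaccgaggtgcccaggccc
Mcl1: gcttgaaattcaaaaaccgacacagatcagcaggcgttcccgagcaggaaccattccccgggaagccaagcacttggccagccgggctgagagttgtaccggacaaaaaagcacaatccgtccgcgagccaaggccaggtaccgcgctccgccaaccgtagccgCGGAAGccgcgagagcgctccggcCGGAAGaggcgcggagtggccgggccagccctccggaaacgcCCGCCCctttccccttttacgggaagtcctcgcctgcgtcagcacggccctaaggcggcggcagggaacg

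Promoters were listed for 9 of the 10 members, in 15 entries. On either strand, TGTTTAC was found in 1 of these entries, that of Bcl2l11 shown above, and in 3.65% of all 32851 promoters of the same length. FOXO factors are transcription factors that growth factor signalling through AKT keeps out of the nucleus, and Bcl2l11 is among the genes they are known to induce. The other form searched, TGTTTGC, was found in entries of Bmf and Bcl2l1 and in 5.07% of all promoters. CGGAAG, the core bound by ETS factors, some of which ERK activates, was found in 5 of the 15 entries, from Bcl2l11, Bcl2l1, Mcl1 and Bad, and in 16.9% of all promoters. GGGCGG was found in 8 of the 15 entries and in 35.7% of all promoters, and the cyclic AMP response element TGACGTCA in 0 of 15 and in 1.79%. These matches describe letters in the windows and were not tested as binding sites. The marked motifs do not overlap one another, and GC boxes of the Bcl2l11 window are not marked.

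Depth and library quality bear on what follows. Total counts ranged from 24073133 to 36032428 per library. Egfr itself had 4022, 4758 and 991 counts in the EGFR-DN libraries and 6 counts in each EGFR-WT library (log2 fold change 9.01, edgeR adjusted p = 0.00981). The EGFR-WT counts lay near the floor of 3 counts, so transcript of the wild-type receptor was barely detected in those libraries. Stem cell genes were present. Kit was at 1962 CPM (counts per 1000000 counts) in EGFR-DN replicate 3 and at 736 to 806 CPM in the other 5 libraries. Markers of other blood and endothelial cells were found too, with values given beside Bcl2l11. Within those lists the T cell gene Cd3e and the B cell factor gene Pax5 had at most 5 counts and the endothelial gene Cdh5 at most 10, whereas Nkg7, of natural killer and cytotoxic T cells, had 98.9 to 226 CPM, the B cell gene Cd79a 2.03 to 17.6 CPM and Pecam1, of endothelial and some blood cells, 48.4 to 143 CPM over the 6 libraries. EGFR-DN replicate 3 stood apart: 8 rRNA-like genes took 25.4% of its counts, against 4.71% to 6.15% in the other 5 libraries. Compared with the mean of EGFR-DN replicates 1 and 2, its log2 CPM differed by a median of −0.36 in the third of genes with the shortest transcripts and 0.43 in the third with the longest. Where this library moved the result of a member or a named pathway gene, values with and without it are given.

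The members spanned a wide range of transcript levels. To compare genes, CPM was divided by the median length of the gene's protein-coding transcripts. Mcl1, whose short-lived protein binds BAK1 and several BH3-only proteins, was highest at 145 ± 10.9 CPM per kb in EGFR-DN and 141 ± 8.15 in EGFR-WT (mean ± SD, n = 3 each), and its lowest library exceeded the highest value of every other member. A middle group of Bad, Bid, Bcl2l1, Bcl2 and Bak1 lay between 22.1 and 39.8 CPM per kb in group means, and neighbours in that order had overlapping ranges over the 6 libraries. Bcl2l11 followed at 8.17 ± 1.26 CPM per kb in EGFR-DN and 6.02 ± 0.311 in EGFR-WT, and Bcl2l2, which codes for the pro-survival protein BCL-W, at 4.40 ± 0.174 in EGFR-DN and 4.14 ± 0.280 in EGFR-WT. Both were separate from each other and from the members above and below them in every library. Bmf and Bik were lowest, at 0.665 and 0.769 CPM per kb in EGFR-DN and 0.467 and 0.476 in EGFR-WT, with ranges that overlapped.

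**Figure D1:**
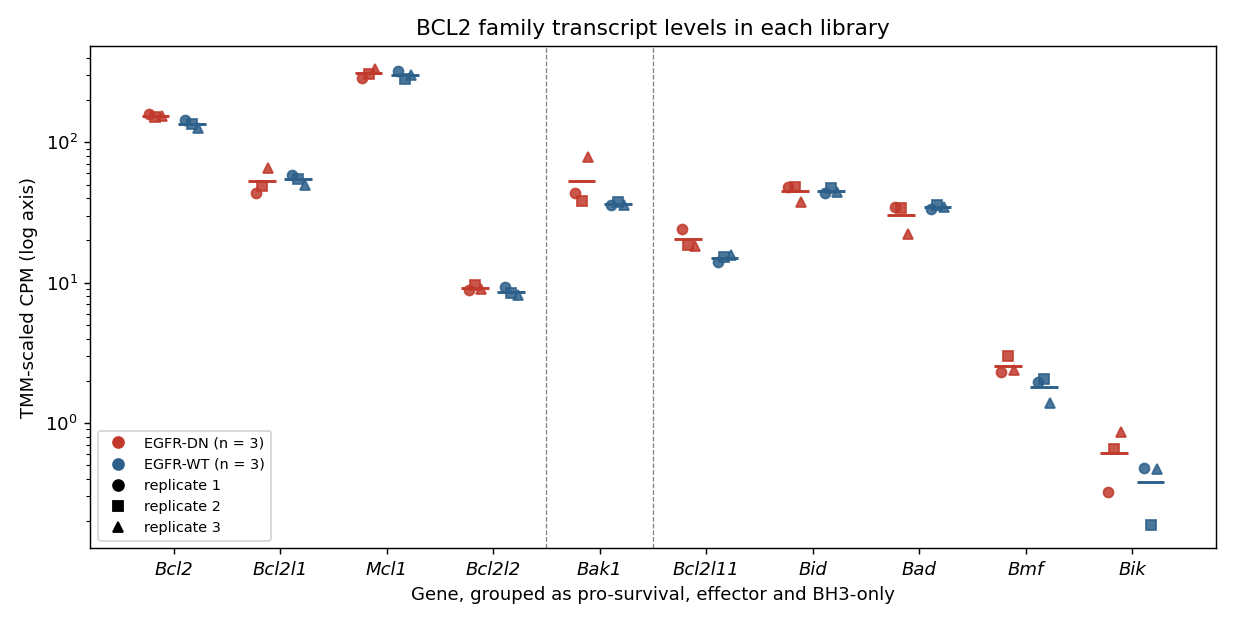
TMM-scaled CPM of each member in each library, on a log axis, with EGFR-DN left of EGFR-WT for each gene, symbols for replicates and bars for group means. Mcl1 lies between 284 and 334 CPM in all libraries and Bik below 1 CPM, and the EGFR-DN values of Bcl2, Bak1, Bcl2l11 and Bmf all lie above their EGFR-WT values.

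The comparison of EGFR-DN with EGFR-WT asks whether survival and death genes of the stem cell compartment differ when the truncated receptor is made. By edgeR's quasi-likelihood test with Benjamini-Hochberg adjustment over all 19313 genes, 0 of the 10 members passed the threshold of 0.05, where 0.00518% of all genes, Egfr alone, did. DESeq2 also called 0 members, against 0.700% of all genes. At an unadjusted p under 0.05 there was 1 member, Bcl2l11, against 6.69% of all genes (4.30% higher and 2.40% lower in EGFR-DN). In 4 of 10 members (Bcl2, Bak1, Bcl2l11 and Bmf) every EGFR-DN value lay above every EGFR-WT value and in 0 below, against 9.21% of all genes above, 8.72% below and 17.9% in either direction. The same 4 were found with DESeq2 size factors, with upper-quartile scaling and with the rRNA-like genes removed, but Bak1 alone when libraries were scaled by their totals. The median log2 fold change of the members was 0.14, beside 0.0099 for all genes tested, and 7 of 10 lay above 0. Without EGFR-DN replicate 3 edgeR called 0 members, against 0.286% of all genes (0.231% higher and 0.0552% lower in EGFR-DN), and DESeq2 called 1, against 4.44% (2.51% higher and 1.93% lower). In that edgeR fit Bcl2 and Bcl2l11 were higher and Bcl2l1 lower in EGFR-DN at an unadjusted p under 0.05, or 3 of 10 against 13.6% of all genes (6.64% higher and 6.99% lower).

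Among the pro-survival genes, Mcl1 gave the closest values in the 2 groups. It was at 288, 306 and 334 CPM in EGFR-DN replicates 1 to 3 and at 319, 284 and 302 CPM in EGFR-WT replicates 1 to 3. The groups overlapped fully, and the log2 fold change was 0.034, with a 95% interval from −0.35 to 0.42 (edgeR adjusted p = 0.934). Without EGFR-DN replicate 3 it was −0.028, with an interval from −0.20 to 0.15.

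Bcl2, the founding member of the family and a guard of mitochondrial integrity in lymphoid and stem cells, was slightly above its EGFR-WT level in each EGFR-DN library. It was at 158, 152 and 153 CPM in EGFR-DN and at 144, 134 and 127 CPM in EGFR-WT. The lowest EGFR-DN value exceeded the highest EGFR-WT value, but the difference was small. The log2 fold change was 0.19, with an interval from −0.145 to 0.52 (SE 0.14, edgeR adjusted p = 0.699). Without EGFR-DN replicate 3 it was also 0.19, with an interval from 0.02 to 0.36 (SE 0.072, edgeR adjusted p = 0.317).

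Bcl2l1, which codes for BCL-XL, the pro-survival protein of platelets and erythroid precursors, depended on EGFR-DN replicate 3. It was at 43.8, 49.0 and 65.8 CPM in EGFR-DN and at 58.6, 54.8 and 49.6 CPM in EGFR-WT. EGFR-DN replicate 3 held the highest value of all libraries and replicates 1 and 2 the lowest values. The log2 fold change was −0.041 (SE 0.19, edgeR adjusted p = 0.932), and −0.23 without replicate 3 (SE 0.096, edgeR adjusted p = 0.352). Bcl2l2 was at 8.90, 9.56 and 8.98 CPM in EGFR-DN and at 9.24, 8.42 and 8.12 CPM in EGFR-WT. The groups of this gene overlapped, and its log2 fold change was 0.089 (SE 0.17, edgeR adjusted p = 0.832). Bcl2l2 overlaps the protein-coding gene Gm20521 on the same strand, and how counting divided their reads was not given.

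The make-up of the pro-survival pool does not depend on scaling between libraries. Mcl1 made up 68.2 ± 0.644% of the summed CPM per kb of the 4 pro-survival genes in EGFR-DN and 68.7 ± 1.502% in EGFR-WT (mean ± SD, n = 3 each). Bcl2l1 made up 15.1 ± 2.00% in EGFR-DN and 16.2 ± 0.976% in EGFR-WT. Bcl2l2 made up 2.08 ± 0.188% in EGFR-DN and 2.01 ± 0.0578% in EGFR-WT. The share of Bcl2 was 16.0%, 14.5% and 13.2% in EGFR-DN replicates 1 to 3 and 13.2%, 13.5% and 12.6% in EGFR-WT replicates 1 to 3. Over all 6 libraries the groups overlapped in all 4 shares. For 3 of them the overlap came from EGFR-DN replicate 3 alone. The shares are parts of the same sum, so these are not separate results. With only 2 EGFR-DN libraries left, groups separate easily, and how often all genes do so was not computed. In EGFR-DN replicates 1 and 2 Bcl2l1 made up 13.6% and 14.4%, below every EGFR-WT share (15.1% at the least), and Bcl2l2 made up 2.17% and 2.21%, above the 1.95% to 2.05% of EGFR-WT. The share of Bcl2 in these 2 libraries likewise lay above all EGFR-WT values, and that of Mcl1 overlapped with or without replicate 3. The log2 ratio of the summed pro-survival to the summed BH3-only level was 1.19, 1.32 and 1.89 in EGFR-DN and 1.49, 1.25 and 1.34 in EGFR-WT. EGFR-DN replicate 3 held the highest ratio and replicate 1 the lowest, so the groups overlapped here too, as they did without replicate 3 (mean 1.25 in EGFR-DN and 1.36 in EGFR-WT).

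**Figure D2:**
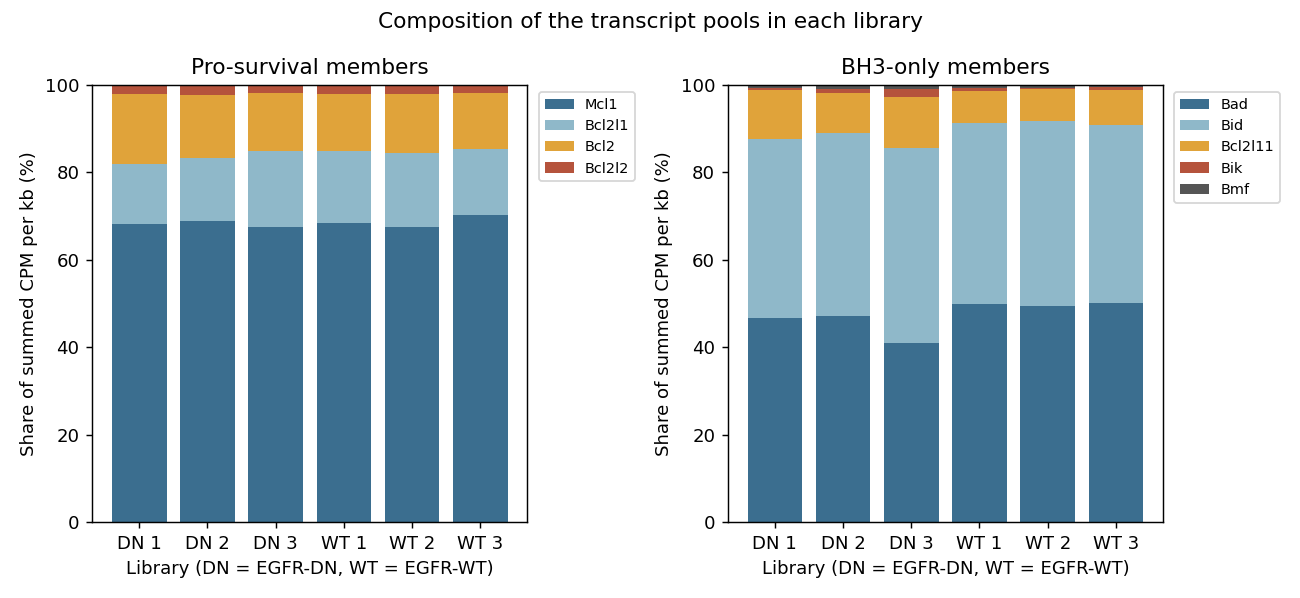
Share of each gene in the summed CPM per kb of the 4 pro-survival members (left) and the 5 BH3-only members (right), as stacked bars per library, EGFR-DN left of EGFR-WT. Mcl1 takes 67.4% to 70.4% of the pro-survival pool in every library, and Bcl2l11 takes 8.99% to 11.8% of the BH3-only pool in EGFR-DN against 7.32% to 7.92% in EGFR-WT.

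Bak1, the pore-forming effector, was above its EGFR-WT level in each EGFR-DN library, largely through replicate 3. It was at 43.6, 38.1 and 78.2 CPM in EGFR-DN and at 35.6, 37.5 and 35.8 CPM in EGFR-WT. EGFR-DN replicate 2 lay just above the highest EGFR-WT value, and replicate 3, the rRNA-rich library, far above all others. The log2 fold change was 0.55 (SE 0.28, edgeR adjusted p = 0.690) and 0.17 without replicate 3 (SE 0.086, edgeR adjusted p = 0.455). Bax, the other effector gene, was at 57.8, 59.9 and 28.0 CPM in EGFR-DN and at 56.3, 62.2 and 58.2 CPM in EGFR-WT. The 2 effector genes thus stood apart in opposite directions in EGFR-DN replicate 3, and the log2 fold change of Bax was −0.28 with that library and −0.0056 without it. Bak1 overlaps Ggnbp1 on the opposite strand in the annotation, and the library kit does not mark strand. Ggnbp1 had 82 to 118 counts in EGFR-DN and 108 to 138 in EGFR-WT, while Bak1 had 1342 to 1542 counts in EGFR-DN and 907 to 1407 in EGFR-WT.

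Bcl2l11, which codes for BIM, a BH3-only protein that binds all pro-survival members and can activate BAX and BAK1, had the smallest p of the family. It was at 23.9, 18.7 and 18.4 CPM in EGFR-DN and at 14.1, 15.2 and 15.7 CPM in EGFR-WT. The groups did not overlap, EGFR-DN replicate 1 was highest, and EGFR-DN replicate 3 was close to replicate 2. The log2 fold change was 0.44, or 1.36-fold, with an interval from 0.04 to 0.84 (SE 0.17), and it did not pass after adjustment over all genes (edgeR adjusted p = 0.690). Without EGFR-DN replicate 3 the log2 fold change was 0.50 (SE 0.13, edgeR adjusted p = 0.178). DESeq2 without that library gave 0.51 and an adjusted p of 0.0291, the 1 setting of 16 in which any member passed. Over those 16 settings its adjusted p ranged from 0.0291 to 0.912 and its log2 fold change from 0.30 to 0.51, always above 0. Its unadjusted p was under 0.05 in 8 of the 16 and above it in the other 8, which were library size alone, no count filter, the replicate block, and the fits without EGFR-DN replicate 1, without EGFR-DN replicate 2 and without each EGFR-WT replicate. The lowest log2 fold change, 0.30, was without EGFR-DN replicate 1. Within the BH3-only pool in CPM per kb, Bcl2l11 made up 10.6 ± 1.46% in EGFR-DN and 7.53 ± 0.341% in EGFR-WT, with groups that did not overlap. This share was not a planned measure and rests on the same Bcl2l11 counts. It was 11.1%, 8.99% and 11.8% in EGFR-DN replicates 1 to 3. The highest share was thus in replicate 3, where Bad and Bid were at their lowest (22.2 and 37.8 CPM).

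Within a library, Bcl2l11 can also be read against Mcl1, the pro-survival gene with the most transcript. The log2 ratio of Mcl1 to Bcl2l11 in CPM per kb, a measure chosen after the values were seen, was 3.81, 4.25 and 4.41 in EGFR-DN and 4.72, 4.45 and 4.49 in EGFR-WT. The groups did not overlap, although EGFR-DN replicate 3 and EGFR-WT replicate 2 were nearly equal. Read against Bcl2 in the same way, the groups overlapped: the log2 ratio of Bcl2 to Bcl2l11 was 1.71, 2.01 and 2.05 in EGFR-DN and 2.34, 2.13 and 2.01 in EGFR-WT, with EGFR-DN replicate 3 above the lowest EGFR-WT library and replicate 2 level with it. When libraries were scaled by their totals alone, which shifted the median of all genes by −0.11, the Bcl2l11 groups overlapped, and its log2 fold change relative to that median was 0.44.

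Summed markers of several other cell types were also larger in EGFR-DN. In 4 lists (neutrophil, T and natural killer, B, and endothelial and stromal) every EGFR-DN sum lay above every EGFR-WT sum, for B cells only just. In every library, single genes made up most of 3 of these sums. In EGFR-DN replicates 1 to 3, Mpo was at 653, 648 and 1261 CPM, Nkg7 at 226, 207.5 and 149.9 and Pecam1 at 71.9, 69.5 and 143. Klrb1c, of natural killer cells, went the other way, at 4.78 to 8.14 CPM in EGFR-DN and 9.99 to 26.4 CPM in EGFR-WT. In log2 fold change, 3 of 5 T and natural killer and 3 of 4 endothelial and stromal genes lay above 0. All 7 neutrophil and all 5 B cell genes tested did. The neutrophil list (7 of 8 genes tested) summed to 772, 787 and 1419 CPM in EGFR-DN replicates 1 to 3 and 368 to 531 CPM in EGFR-WT. Replicate 3 thus lay far above replicates 1 and 2. Ltf had 0 counts in EGFR-DN replicate 3, and Camp had 1 to 44 counts over all libraries. The T and natural killer list (5 of 7 tested) summed to 170 to 262 CPM in EGFR-DN and 140.1 to 167 CPM in EGFR-WT. The B cell list (5 of 6 tested) summed to 43.7 to 60.9 CPM in EGFR-DN and 34.7 to 43.5 CPM in EGFR-WT. Cd79b made up most of the B cell sum in every library but EGFR-DN replicate 3. Its groups overlapped, at 21.4 to 39.6 CPM in EGFR-DN and 26.0 to 31.55 CPM in EGFR-WT. The endothelial and stromal list (4 of 5 tested) summed to 75.4, 76.8 and 150.8 CPM in EGFR-DN replicates 1 to 3. In EGFR-WT the endothelial and stromal sum was 50.7 to 66.9 CPM. In 2 further lists the groups overlapped through EGFR-DN replicate 3. The monocyte and macrophage list (4 of 5 tested) summed to 17.04 to 42.8 CPM in EGFR-DN and 10.6 to 19.0 CPM in EGFR-WT, with Adgre1 at 0 to 47 counts. The later progenitor list (3 of 3 tested) summed to 583.7 to 916 CPM in EGFR-DN and 466.5 to 597 CPM in EGFR-WT. The erythroid and megakaryocyte sums overlapped too, at 38.2 to 67.3 CPM in EGFR-DN and 32.5 to 49.3 CPM in EGFR-WT for the erythroid list and at 344 to 617 CPM in EGFR-DN and 353 to 720.5 CPM in EGFR-WT for the megakaryocyte list. Flt3, a receptor gained by multipotent progenitors, was at 169 to 224 CPM in EGFR-DN and 99.1 to 122.9 CPM in EGFR-WT (DESeq2 adjusted p = 0.0176, edgeR adjusted p = 0.690); it was chosen after its values were seen. With EGFR-DN replicate 3 left out, edgeR gave 7 of the 10 stem cell genes an unadjusted p under 0.05, all lower in EGFR-DN. Of all genes 6.99% were lower at that p. After adjustment edgeR called 0 of the 10, against 0.0552% of all genes called lower. DESeq2 without that library called 2 of them lower, Hlf and Fgd5, against 1.93% of all genes. All 10 log2 fold changes of the stem cell genes then lay below 0, with a median of −0.64. With all 6 libraries, 1 of the 10 was lower at an unadjusted p under 0.05 by edgeR, against 2.40% of all genes. In that fit 7 of the 10 lay below 0, with a median of −0.21. The stem cell list summed to 1323, 1591 and 3743 CPM in EGFR-DN and to 1753 to 2118 CPM in EGFR-WT, so that EGFR-DN replicates 1 and 2 lay below and replicate 3 above. The part of these markers in the Bcl2l11 values was not tested. In bulk RNA, more cells of a type and more RNA per cell cannot be told apart.

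The other BH3-only genes gave smaller or less certain differences. Bid, the substrate through which caspase 8 links death receptors to mitochondria, was at 48.3, 47.7 and 37.8 CPM in EGFR-DN and at 43.8, 47.6 and 44.2 CPM in EGFR-WT. Bad, whose protein is held inactive by phosphorylation when growth factors signal, was at 34.9, 34.0 and 22.2 CPM in EGFR-DN and at 33.5, 35.5 and 34.4 CPM in EGFR-WT. For both genes EGFR-DN replicate 3 was the lowest library and the other 5 lay close together. The log2 fold changes were −0.017 for Bid (SE 0.15, edgeR adjusted p = 0.965) and −0.18 for Bad (SE 0.20, edgeR adjusted p = 0.744), and without that library they were 0.084 for Bid and −0.0047 for Bad. Bad and Bid each overlap a gene on the opposite strand, Gpr137 with 208 to 432 counts and Bcl2l13 with 1288 to 1975 counts over the 6 libraries.

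Bmf, a BH3-only protein known to be released from the cytoskeleton in detached cells, was at 2.30, 3.01 and 2.38 CPM in EGFR-DN and at 1.97, 2.05 and 1.38 CPM in EGFR-WT. Its groups did not overlap, but the values rest on 47 to 106 counts in EGFR-DN and 35 to 77 in EGFR-WT. The log2 fold change was 0.51, with an interval from −0.20 to 1.21 (SE 0.30, edgeR adjusted p = 0.690). Bik, a BH3-only gene of the endoplasmic reticulum pathway, had 11, 23 and 17 counts in EGFR-DN and 15, 7 and 12 in EGFR-WT. At this depth a difference in Bik was not detectable: the interval of its log2 fold change, 0.68, ran from −0.67 to 2.03 (SE 0.57, edgeR adjusted p = 0.710). It was 0.38 without EGFR-DN replicate 3 and 0.34 without EGFR-WT replicate 2.

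**Figure D3:**
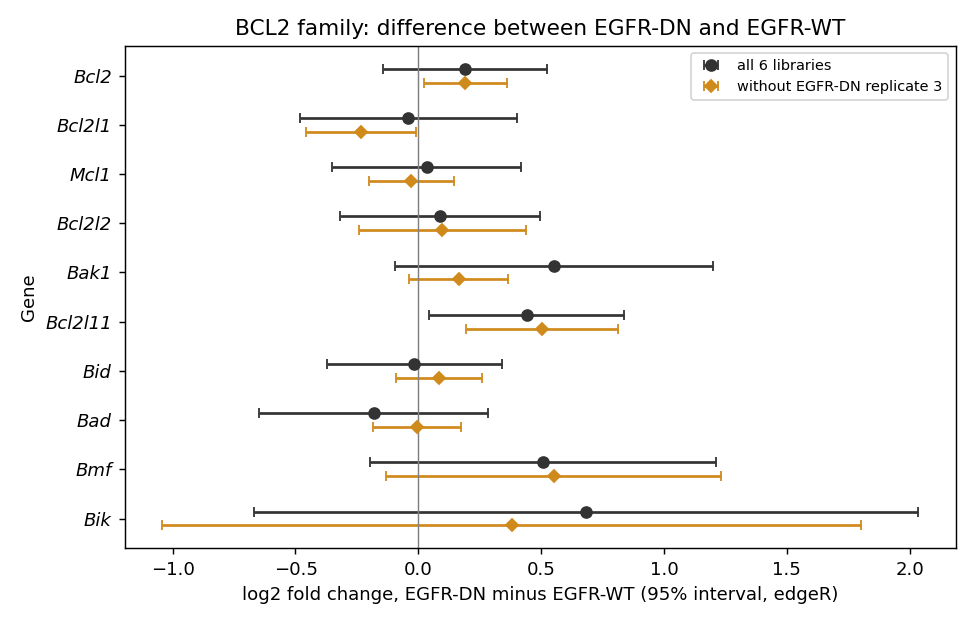
Log2 fold change of each member, EGFR-DN minus EGFR-WT, with 95% intervals from edgeR, for all 6 libraries (circles) and without EGFR-DN replicate 3 (diamonds). With all libraries the interval of Bcl2l11 alone lies above 0, from 0.04 to 0.84, and leaving out replicate 3 moves Bak1 from 0.55 to 0.17 and Bcl2l1 from −0.04 to −0.23.

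The members did not share a single pattern over the libraries. For Bcl2l11, the genes with the most similar log2 CPM over the 6 libraries, among 9748 candidates with at least 10 CPM, were Macroh2a1 (r = 0.994), Mpeg1 (r = 0.992) and Dglucy (r = 0.982), and 73 candidates exceeded r = 0.9. For Bak1 they were Lrp5 (r = 0.999), Glg1 (r = 0.998) and Cfl1 (r = 0.998), and 2098 candidates exceeded 0.9. For Mcl1 they were Crebrf (r = 0.999), Zfp444 (r = 0.979) and Lpp (r = 0.978), with 88 above 0.9. These are descriptions over 6 libraries that share depth and quality differences. Among pairs of members, Bak1 and Bad had r = −0.952, which became 0.432 without EGFR-DN replicate 3.

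Relatives of the members and other genes of the pathway were read from 5 lists of 73 genes, of which 69 were tested. By edgeR 0 passed, against 0.00518% of all genes, and 0 had an unadjusted p under 0.05, against 6.69% of all genes. By DESeq2 0 passed, against 0.700% of all genes. Their median log2 fold change was −0.031 and 33 of 69 lay above 0. With EGFR-DN replicate 3 left out, 0 of 70 passed by edgeR, against 0.286% of all genes, and 0 by DESeq2, against 4.44%. In that edgeR fit 4 of the 70 had an unadjusted p under 0.05, against 13.6% of all genes.

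Of the 16 other BCL2 family genes 12 were tested. Bbc3, which codes for PUMA, a BH3-only protein induced by p53, was at 16.8, 17.1 and 7.61 CPM in EGFR-DN and at 17.6, 16.3 and 21.4 CPM in EGFR-WT (log2 fold change −0.41, SE 0.32, edgeR adjusted p = 0.700). Its lowest value was again in EGFR-DN replicate 3, and without that library its log2 fold change was −0.12. Bnip3, a mitophagy receptor with a BH3-like region, was at 31.6, 35.9 and 24.9 CPM in EGFR-DN and at 38.2, 38.2 and 37.7 CPM in EGFR-WT (log2 fold change −0.30, SE 0.17, edgeR adjusted p = 0.690), and its log2 fold change was −0.18 without EGFR-DN replicate 3. Bcl2l13, a mitochondrial BCL2-like gene that overlaps Bid, was at 57.6, 50.4 and 71.0 CPM in EGFR-DN and at 44.3, 51.3 and 50.8 CPM in EGFR-WT, with overlapping groups and a log2 fold change of 0.29 (SE 0.17), or 0.14 without that library. The Bcl2a1 genes are near-identical copies among which counting may divide reads, and none of the 4 exceeded 30 counts in any library. Bcl2a1d had the smallest p of the 12, with 4, 14 and 2 counts in EGFR-DN and 11, 16 and 18 in EGFR-WT (log2 fold change −1.19, SE 0.65, edgeR adjusted p = 0.690), and is uncertain for that reason. Hrk and Bcl2l10, a BH3-only and a BCL2-like gene, had at most 2 counts each and were not tested.

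**Figure D4:**
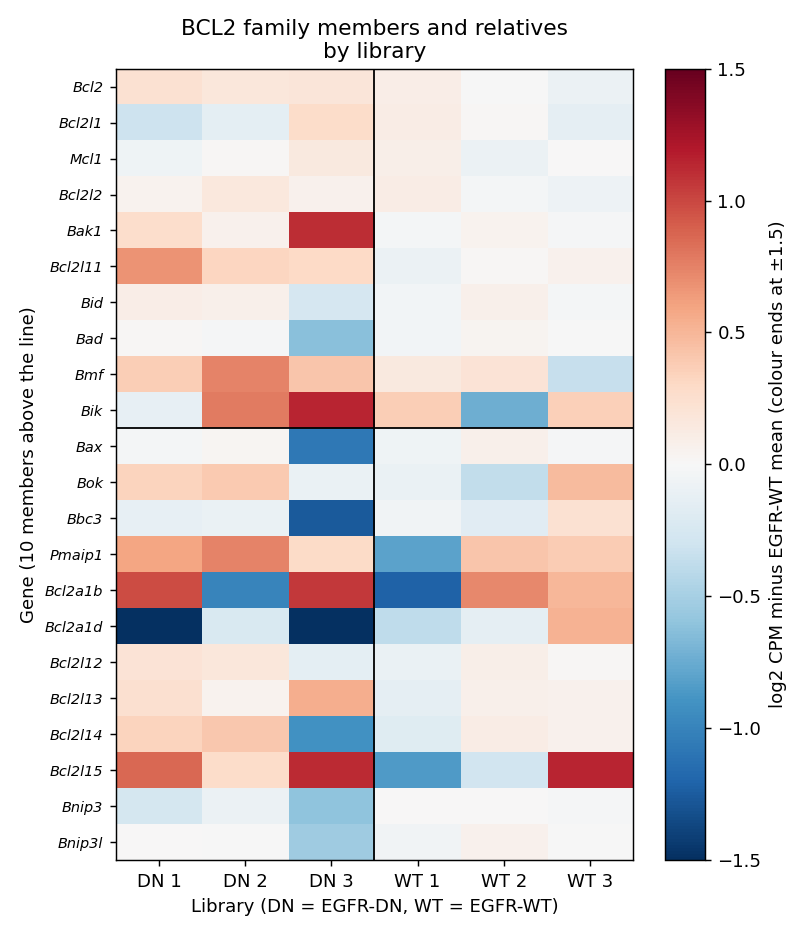
Log2 CPM minus the EGFR-WT mean for the 10 members (above the line) and 12 tested relatives, by library, with EGFR-DN columns left of EGFR-WT columns. EGFR-DN replicate 3 stands out with high Bak1 and low Bax and Bbc3, whereas Bcl2l11 is above the EGFR-WT mean in all 3 EGFR-DN libraries by 0.68, 0.32 and 0.29.

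Downstream of the mitochondrion, Apaf1, the scaffold on which caspase 9 is activated, had the smallest p of its list of 16 genes. It was at 50.8, 45.8 and 61.8 CPM in EGFR-DN and at 38.0, 45.5 and 39.4 CPM in EGFR-WT (log2 fold change 0.37, SE 0.17, edgeR adjusted p = 0.690). Its groups were barely separate, and without EGFR-DN replicate 3 the log2 fold change was 0.23. Birc6, a large inhibitor of apoptosis, was at 314 CPM in EGFR-DN replicate 3 and at most 103 CPM in the other 5 libraries, and Endog, a mitochondrial nuclease, was at 1.83 CPM in that library and at least 6.24 CPM in the others. Their log2 fold changes were 0.89 for Birc6 and −0.70 for Endog, and without that library 0.085 for Birc6 and −0.33 for Endog. In the death receptor list the adaptor gene Fadd had a log2 fold change of 0.52 (0.13 without replicate 3) and Fas, a death receptor, −0.54 (−0.27 without it). Ripk1, a kinase of death receptor complexes, had −0.12.

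Of 22 genes whose products act on the members, the 3 with the smallest p were highest in EGFR-DN replicate 3. Huwe1, a ubiquitin ligase for MCL1, was at 241, 225 and 774 CPM in EGFR-DN and at 210, 204 and 235 CPM in EGFR-WT. Foxo3, a FOXO factor known to induce Bcl2l11, was at 93.6, 86.5 and 285 CPM in EGFR-DN and at 91.6, 82.3 and 82.5 CPM in EGFR-WT. Replicate 3 was far above the other libraries in both genes, and without it the log2 fold change was 0.10 for Huwe1 and 0.071 for Foxo3. Mapk3, which codes for the kinase ERK1, differed by 0.40 on the log2 scale with all libraries (SE 0.21, edgeR adjusted p = 0.690), and by 0.14 with that library left out. Of the 9 mitochondrial partners 7 lay below 0, with a list median of −0.20 that became −0.036 without replicate 3. Dnm1l, the fission GTPase, had −0.24 (−0.15 without replicate 3), the fusion gene Mfn2 −0.20 (−0.12 without it), and Mtch2, a docking site for BID, −0.28 (−0.049 without it), and 0 passed. Mtch2 was at 69.7, 68.3 and 37.2 CPM in EGFR-DN and at 70.2, 70.9 and 72.4 CPM in EGFR-WT, so that replicate 3 alone lay far from the rest.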

How the data were processed

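Estimated counts for each gene symbol in 6 libraries were deposited by the authors, with totals that differ between libraries. Of the values 79.4% are whole. Per the labels' protocols, oligo(dT)-primed SMART-Seq v4 cDNA from 10 ng RNA was made into Nextera XT libraries and read as single reads of 75 bases. Per the submitters' processing notes, DRAGEN, DESeq2 1.40.2, R 4.3.1 and build mm39 were named. What each did, the annotation and the strand setting were not given there.

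Counts were rounded, filtered with filterByExpr, scaled by TMM and fitted by edgeR 4.0.16 (R 4.3.3; two-sided quasi-likelihood test, threshold 0.05), with SE as the log2 fold change over the square root of F. A positive log2 fold change means higher in EGFR-DN. The alternatives included DESeq2 1.42.0 and limma-voom 3.58.1, and DESeq2 without EGFR-DN replicate 3 was added after the data were seen. Transcript lengths come from GENCODE M21 (GRCm38), an earlier build than the files', so promoter coordinates are GRCm38 only. The fit was also run on simulated counts. These had the same dispersion (spread beyond counting error) for every gene and no library like EGFR-DN replicate 3. That run therefore does not show how the fit performs on these data. Total counts were 24073133 to 36032428, and 3 counts equal 0.0833 to 0.125 CPM. This floor covers counting error only. No libraries were duplicates (chi-square per degree of freedom at least 16.3).

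The members and lists were chosen with earlier results of these data known. Named are all members, Egfr, relatives of the family, among them Bax and Bbc3, a few markers of the sort or of other cells (after their values were seen), and the 3 genes with the smallest p in each pathway list. Genes most alike were taken for the 2 members with the smallest p and the most abundant.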

Additional observations from a re-analysis of the deposited data

How the results depend on the processing

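Over 16 alternatives, 159 values of the members' log2 fold changes were computed (Bik was lost to the strict filter). Of these 146 kept their direction and stayed short of the threshold, 12 changed sign and 1 passed (Bcl2l11, DESeq2 without EGFR-DN replicate 3). The changes of sign concern members near 0. With library size alone Mcl1 was at −0.090 and Bcl2l2 at −0.025 (0.014 and 0.080 relative to the median of all genes). Without a count filter Mcl1 was at −0.013, and with the strict filter of 50 counts in 3 libraries Bid was at 0.0022. Leaving out each library in turn, DESeq2 without EGFR-DN replicate 3 included, gave −0.23 to 0.074 for Bcl2l1, −0.028 to 0.080 for Mcl1 and −0.081 to 0.086 for Bid. The same fits gave 0.34 to 0.995 for Bik, −0.29 to −0.0025 for Bad, 0.044 to 0.13 for Bcl2l2 and 0.165 to 0.73 for Bak1. Without EGFR-DN replicate 3, Mcl1 was at −0.0258 by DESeq2 and Bid at 0.0835 by edgeR. Over these fits 0 to 884 genes and 0 to 1 members passed (57 genes by edgeR and 884 by DESeq2 without EGFR-DN replicate 3, and 0 without each EGFR-WT library), against 1 gene and 0 members with all 6 libraries. DESeq2 on all libraries called 135 genes and limma-voom 0. The cause of these differences was not tested.

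With the replicate number as a block, edgeR called 1 gene and 0 members, and Bcl2l11 was at 0.43 (edgeR adjusted p = 0.766). Same-numbered libraries deviated together by r = −0.019, 0.055 and 0.064, so the numbers are not read as pairs.

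Composition depends on transcript length. With the longest transcript, Bcl2 made up 15.97% in EGFR-DN and 14.4% in EGFR-WT, Bcl2l2 1.79% in EGFR-DN and 1.73% in EGFR-WT, and Mcl1 67.1% in EGFR-DN. With no division by length, Bcl2 made up 29.4% in EGFR-DN and 27.0% in EGFR-WT, Bcl2l1 9.997% in EGFR-DN and 10.9% in EGFR-WT, Mcl1 58.8% in EGFR-DN and 60.4% in EGFR-WT, and Bcl2l2 1.75% in EGFR-DN and 1.72% in EGFR-WT. The log2 ratio of pro-survival to BH3-only levels was then 2.43 in EGFR-DN and 2.37 in EGFR-WT. The other composition values, 35 in all, stayed within 1 SD. In the order of levels by the longest transcript, Mcl1 stayed first in both groups, Bad, Bid, Bcl2l1, Bcl2 and Bak1 changed places in EGFR-DN and kept their order in EGFR-WT, and Bmf and Bik changed places in both. Depth limits Bik and Bmf most.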
